A study of Mus musculus with 4 samples.

Results

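The genes described here encode the ephrin, Slit-Robo and netrin guidance systems: ephrins and their Eph receptors, Slits and their Robo receptors, netrins and netrin-G proteins with the receptors Dcc, neogenin and Unc5, the repulsive guidance molecules Rgma and Rgmb, and the Flrt proteins. Membership was set by gene symbol, in a rule chosen with earlier results of these data known, and 46 of the 23444 symbols in the files are members. RNA was sequenced from primary mouse oligodendrocytes, grown from precursor cells and kept for 1 day with T3, the thyroid hormone that starts their differentiation in culture. For the 2 control samples the genotype is given as lncOL1+/+ and lncOL1+/- together, so that which of them has which genotype is unknown, and the 2 knockout samples are labelled lncOL1-/-, for the gene of the long noncoding RNA lncOL1. All samples are of a mixed strain background, and nothing in the labels says that they came from separate animals or cultures, so the p-values rest on the spread among these samples alone, and that spread may be technical.

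Guidance molecules steer growing axons and migrating cells by attraction, repulsion and contact. Ephrins are cell-surface ligands of the Eph receptor tyrosine kinases: ephrin-A proteins are held by a lipid anchor and ephrin-B proteins span the membrane, and both can signal back into the cell that carries them. Slits are large secreted proteins that repel cells through Robo receptors, and netrins are secreted proteins that attract through Dcc and repel through Unc5 receptors. Neogenin, the product of Neo1, is related to Dcc and is also the receptor of the repulsive guidance molecules. In the oligodendrocyte lineage these systems are known from the migration of precursors, and ephrin-B3 and Rgma are known as inhibitors of axon growth in myelinated tissue.

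The values are FPKM (fragments per kilobase of transcript, relative to all mapped fragments), which are scaled by length and so allow levels of different genes to be set side by side. A gene was tested if its mean over the 4 libraries was at least 1 FPKM, and it is called higher or lower where limma gave an adjusted p under 0.05 (Benjamini-Hochberg) over the 11361 genes tested. Fold changes are knockout minus control in units of log2(FPKM + 1), so that changes of low genes are understated. lncOL1 itself read 28.9 and 34.0 FPKM in the controls against 5.54 and 5.06 in the knockouts (log2 fold change -2.36, SE 0.097, limma adjusted p = 0.000389). Both knockout libraries thus kept some signal at this gene, well below either control, and which part of the gene these reads cover was not tested. Summed FPKM was 373484 to 383128 per library, and 11284 to 11357 genes reached 1 FPKM in each.

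The cells were checked against marker lists by their summed FPKM. The 10 markers of the oligodendrocyte lineage summed to 10520 and 10640 in the controls against 8941 and 9125 in the knockouts, and 1 of them, Mbp, was called lower. Astrocyte markers were also present, at 698.1 and 652.8 against 647.2 and 616.2, mostly Gfap, S100b and Aldoc. Of the 6 tested, 3 were lower without overlap (Gfap, Slc1a2 and S100b), against 20.7% of all genes tested. On the higher side there were 0, and 0 were called. The sum of the 5 precursor markers lay between 440.0 and 465.7, and was mostly Tnr and Lhfpl3. Of these 5, 3 were higher without overlap (Cspg4, Pcdh15 and Tnr), against 22.6% of all genes tested. On the lower side there was 1 (Pdgfra), against 20.7%, and 0 were called. The 9 microglia markers summed to 7.12 and 7.64 in the controls against 15.5 and 19.8 in the knockouts, with 2 called higher. All 4 that were tested were higher in both knockout libraries than in both controls, against 22.6% of all genes tested. With the untested markers included, 8 of the 9 were. The 9 fibroblast and mural markers summed to 10.1 and 10.9 against 19.1 and 18.6, but they did not move together. The contractile genes Tagln (7.04 and 7.35 in the controls against 14.6 and 14.6 in the knockouts) and Acta2 (1.15 and 1.72 against 3.07 and 3.32) were called higher. Together their means rose by more than the sum did. Of the other 7, each under 1 FPKM in every library and not tested, 6 (Col1a1, Col1a2, Col3a1, Dcn, Lum and Pdgfrb) had lower values in both knockout libraries than in both controls. How many of all untested genes are without overlap was not computed, so these counts have no share beside them. Neuron markers lay between 29.1 and 30.5, mostly Tubb3, and the 6 endothelial markers summed to under 1 FPKM in every library. No marker in these lists was at 0 in all libraries. In bulk RNA, fewer cells of a type and less RNA per cell cannot be told apart, and the part of these cell types in the results on the guidance genes was not tested.

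Of the 46 guidance genes, 28 were tested and 18 stayed under the minimum. The ephrin gene Efnb3 and the Slit gene Slit2 were lower in the knockout, 0 members were called higher and 26 did not pass. Over all genes tested, 1.31% were called, 0.528% higher and 0.783% lower. An unadjusted limma p under 0.05 was reached by 7 members on the lower side and 4 on the higher side, against 6.58% and 7.13% of all genes. The libraries of the groups did not overlap for 19 of the 28, against 43.4% of all genes tested. Of these, 10 were lower (20.7% of all genes) and 9 higher (22.6%). The median log2 fold change of the 28 was 0.02, beside 0.005 for all genes tested, with 15 members positive and 13 negative, so the differences were not in one direction. The median was -0.004 after quantile normalization. The authors' deposited table calls 7 of the 30 members that it tests at q under 0.05, against 5.78% of all genes it tests. It has 6 of them lower (4.05% of all genes) and 1 higher (1.73%).

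**Figure D1:**
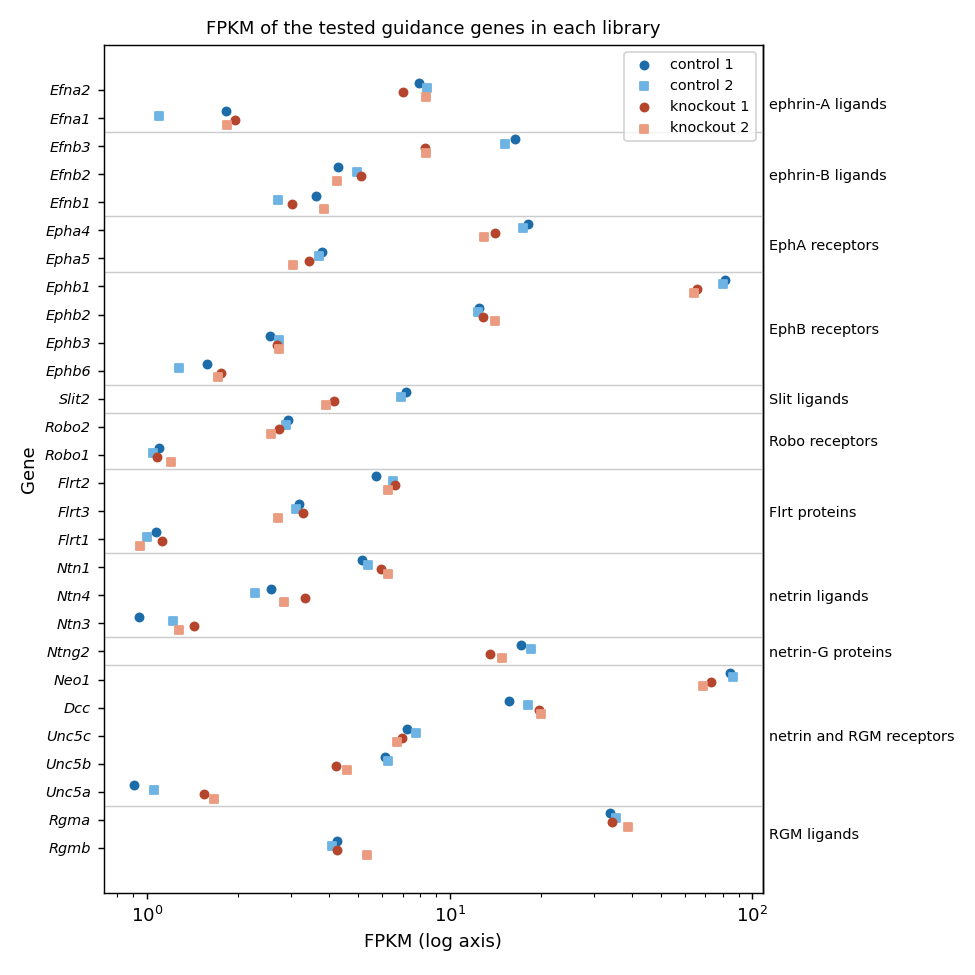
FPKM (log axis) of the 28 tested guidance genes in each of the 2 control (blue) and 2 knockout (red) libraries, grouped by role. Neo1 and Ephb1 are at 64 FPKM or above in every library, and for Efnb3 and Slit2 both knockout points lie to the left of both control points.

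The levels of the members spanned a wide range. Neo1 was the highest with a mean of 78.02 FPKM, followed by Ephb1 with 72.9, Rgma with 35.5, Dcc with 18.4, Ntng2 with 16.1, Epha4 with 15.7, Ephb2 with 13.0 and Efnb3 with 12.1. These 8 were the members with at least 10 FPKM. Neighbours in this order were close: the libraries of Neo1 (68.5 to 86.2 FPKM) and Ephb1 (64.2 to 81.5) overlapped, and so did those of Dcc, Ntng2 and Epha4. A further 6 tested members had means below 2 FPKM.

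Among the ephrins, the ligand gene Efnb3 was lower in the knockout. Efnb3 encodes ephrin-B3, a transmembrane ligand of EphB receptors and of EphA4, and spans positions 69554092 to 69560237 of chromosome 11 on the minus strand (mm10). It read 16.4 and 15.2 FPKM in the controls against 8.27 and 8.39 in the knockouts. The knockout libraries lay close to each other and both were well below the controls. The mean went from 15.8 ± 0.832 to 8.33 ± 0.082 FPKM (SD, n = 2 each), and the log2 fold change came to -0.85 (SE 0.073, 95% interval -1.02 to -0.68, limma adjusted p = 0.00539). In the authors' deposited table its pooled FPKM fell from 15.2 to 7.07, with a log2 fold change of -1.10 and a q listed as 0. The call was lost without control replicate 1 (limma adjusted p = 0.0682), knockout replicate 1 (limma adjusted p = 0.0870) or knockout replicate 2 (limma adjusted p = 0.111) and with no filter on low values (limma adjusted p = 0.0601), and it was kept without control replicate 2 (limma adjusted p = 0.0478). The log2 fold change stayed between -0.92 and -0.80 over the 12 alternatives.

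The other ephrin-B ligands did not pass. Efnb2, whose product acts in blood vessels and neurons, was at 4.29 and 4.96 FPKM in the controls against 5.09 and 4.26 in the knockouts. Efnb1, the X-linked member, was at 3.61 and 2.72 against 3.02 and 3.85. The groups overlapped for both genes, and their log2 fold changes had 95% intervals of -0.24 to 0.27 and -0.24 to 0.43, neither of which reaches the value of Efnb3. As a share of the summed FPKM of the 3 ephrin-B genes, Efnb3 made up 67.5% and 66.5% in the controls against 50.5% and 50.8% in the knockouts. The ephrin-B sum was 24.3 and 22.9 FPKM in the controls against 16.4 and 16.5 in the knockouts.

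Of the 5 ephrin-A ligands 2 were tested and neither passed. Efna2 was at 7.91 and 8.40 FPKM in the controls against 6.996 and 8.35 in the knockouts, with overlapping groups. Efna1, a ligand known from endothelium and epithelium, was at 1.83 and 1.10 against 1.96 and 1.83, where control replicate 2 stood below the other libraries. Efna4 reached a mean of 0.846 FPKM, and Efna3 and Efna5 had means of 0.260 and 0.114. Over all 8 ephrin genes the summed FPKM was 35.5 and 33.6 in the controls against 26.3 and 28.0 in the knockouts.

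Of the Eph receptors, 6 of 14 were tested and none was called, although the 2 most abundant had lower values in the knockout. Ephb1, a receptor of ephrin-B ligands and the leading Eph gene here, was at 81.5 and 80.25 FPKM in the controls against 65.8 and 64.2 in the knockouts. Its groups did not overlap, and the difference was several times the spread within either group (log2 fold change -0.31, SE 0.066, 95% interval -0.47 to -0.15, limma adjusted p = 0.0969). Epha4, which binds both classes of ephrin, ephrin-B3 among them, was at 18.2 and 17.4 FPKM in the controls against 14.1 and 13.0 in the knockouts. Its libraries did not overlap either (log2 fold change -0.37, SE 0.075, 95% interval -0.55 to -0.20, limma adjusted p = 0.0826). The authors' deposited table calls both lower, with a log2 fold change of -0.36 and q = 2.3e-06 for Ephb1 and -0.42 and q = 1.72e-06 for Epha4. Exons of Ephb1 overlap those of a noncoding gene on the opposite strand, Gm26846, and whether the counting used strand is not known from the sources used here, so reads of the pair cannot be told apart.

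None of the remaining tested Eph receptors passed the test. Ephb2, an ephrin-B receptor with roles in synapses and axon crossing, was at 12.5 and 12.4 FPKM in the controls against 12.9 and 14.1 in the knockouts. Its groups did not overlap, but the difference was not past the test (log2 fold change 0.11, limma adjusted p = 0.621). Epha5 was at 3.80 and 3.69 against 3.42 and 3.04 FPKM, lower without overlap (log2 fold change -0.17, limma adjusted p = 0.484). Ephb3 was at 2.55 and 2.73 against 2.69 and 2.73, with overlapping groups. Ephb6, whose kinase domain lacks activity, was at 1.59 and 1.28 against 1.77 and 1.72, higher without overlap (log2 fold change 0.17, limma adjusted p = 0.557). Ephb1 accounted for 67.0% and 67.2% of the summed FPKM of all 14 Eph genes in the controls and for 64.4% and 63.6% in the knockouts. That sum was 121.7 and 119.4 FPKM in the controls against 102.2 and 101.0 in the knockouts.

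**Figure D2:**
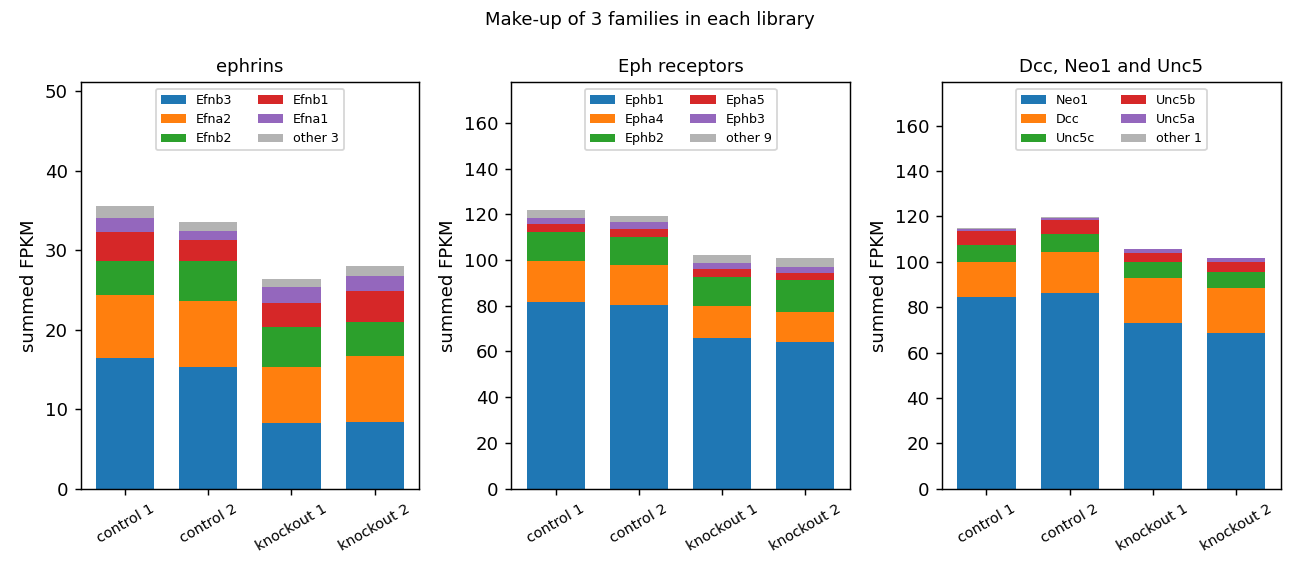
Summed FPKM of the 8 ephrins, the 14 Eph receptors and the 6 netrin and neogenin receptors in each library, stacked by gene with the 5 highest named. Efnb3 shrinks from 16.4 and 15.2 to 8.27 and 8.39 FPKM while the other ephrin blocks stay near their control size, and Ephb1 and Neo1 make up most of the other stacks.

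Among the Slits, Slit2 was lower in the knockout and was the 1 Slit gene tested. Slit2 encodes a secreted repellent that binds Robo receptors, and spans positions 47983155 to 48305778 of chromosome 5 on the plus strand. It read 7.18 and 6.93 FPKM in the controls against 4.14 and 3.92 in the knockouts. Both knockout libraries were below both controls, with a gap far wider than the spread inside either group. The mean went from 7.06 ± 0.175 to 4.03 ± 0.160 FPKM (SD, n = 2 each), and the log2 fold change was -0.68 (SE 0.076, 95% interval -0.86 to -0.50, limma adjusted p = 0.0128). In the authors' deposited table it was at 6.86 and 3.82 FPKM, a log2 fold change of -0.85 with a q listed as 0. The call was lost when any 1 library was left out, with a limma adjusted p = 0.138 (control replicate 1), 0.105 (control replicate 2), 0.117 (knockout replicate 1) and 0.170 (knockout replicate 2), and with no filter on low values (limma adjusted p = 0.0873). The log2 fold change stayed between -0.79 and -0.65 over the 12 alternatives.

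The other Slit genes were almost silent. Slit3 was at 0.038 and 0.039 FPKM in the controls against 0.144 and 0.137 in the knockouts, and Slit1 at 0.123 and 0.169 against 0.231 and 0.212. Both had higher values in the knockout, at levels where few fragments stand behind a value, and in the fit with no filter their limma adjusted p was 0.214 for Slit3 and 0.458 for Slit1. Slit2 made up 97.8% and 97.1% of the summed Slit FPKM in the controls and 91.7% and 91.8% in the knockouts.

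The Robo receptors did not differ detectably. Robo2, the higher of the tested pair, was at 2.92 and 2.89 FPKM in the controls against 2.73 and 2.58 in the knockouts (log2 fold change -0.09, 95% interval -0.30 to 0.11, limma adjusted p = 0.719), without overlap between the groups. Robo1 was at 1.10 and 1.04 against 1.08 and 1.20 FPKM, with overlapping groups. Robo3, known from commissural axons, and Robo4, known from endothelium, were listed at 0 in both control libraries and did not exceed 0.0162 FPKM in any library. The Flrt proteins, adhesion molecules that bind Unc5 receptors and latrophilins, were also level: Flrt2 was at 5.73 and 6.51 against 6.60 and 6.26 FPKM, Flrt3 at 3.18 and 3.12 against 3.29 and 2.70, and Flrt1 at 1.07 and 1.0 against 1.12 and 0.951. All 3 Flrt groups overlapped.

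The promoter of Slit2 is shown because it belongs to the called member with an entry in the promoter table, beside those of Unc5b and Epha4, the members with the next smallest p-values. Each window runs from 250 bases before to 50 bases after the annotated start (RefSeq, GRCm38.p6, the assembly of mm10), written 5′ to 3′ on the strand of the gene. Capitals mark matches on either strand to the GC box GGGCGG and to the TATA box TATAAA, which do not overlap in these windows, and the E-box CAGCTG was searched as well and has 0 matches in the 3 windows. The Slit2 window is chr5:47982905-47983204 on the plus strand, the Unc5b window chr10:60831532-60831831 on the minus strand and the Epha4 window chr1:77515039-77515338 on the minus strand.
Slit2: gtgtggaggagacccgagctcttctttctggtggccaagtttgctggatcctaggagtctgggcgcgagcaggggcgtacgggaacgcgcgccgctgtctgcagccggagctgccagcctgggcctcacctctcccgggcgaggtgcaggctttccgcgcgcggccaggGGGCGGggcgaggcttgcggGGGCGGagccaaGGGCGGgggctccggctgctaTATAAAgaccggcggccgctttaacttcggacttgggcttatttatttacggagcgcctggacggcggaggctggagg
Unc5b: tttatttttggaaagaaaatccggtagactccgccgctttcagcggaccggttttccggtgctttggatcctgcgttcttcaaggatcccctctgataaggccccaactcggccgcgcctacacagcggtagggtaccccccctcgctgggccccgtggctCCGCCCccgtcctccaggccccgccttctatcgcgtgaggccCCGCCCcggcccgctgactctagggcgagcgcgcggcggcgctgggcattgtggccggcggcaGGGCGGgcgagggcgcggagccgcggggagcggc
Epha4: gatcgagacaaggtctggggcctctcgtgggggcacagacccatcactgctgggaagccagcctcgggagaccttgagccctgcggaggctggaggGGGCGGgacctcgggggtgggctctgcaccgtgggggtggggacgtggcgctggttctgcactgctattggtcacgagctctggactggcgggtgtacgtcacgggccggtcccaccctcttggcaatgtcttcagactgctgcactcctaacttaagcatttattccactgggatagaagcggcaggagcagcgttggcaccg
The Slit2 window holds 3 GC boxes, which begin 81, 61 and 49 bases before the start, and a TATA box that begins 28 bases before it. The Unc5b window holds 3 GC boxes, the first pair on the opposite strand, and no TATA box, and the Epha4 window holds 1 GC box. Of all 32851 promoter windows, 35.7% hold a GC box, 13.6% a TATA box and 16.3% the E-box. The guidance genes have 46 windows from 39 genes, of which 65.2% hold a GC box, 8.7% a TATA box and 13% the E-box. CpG dinucleotides numbered 30 in the Slit2, 36 in the Unc5b and 17 in the Epha4 window, against a median of 20.5 over the guidance gene windows and 7 over all windows. A match is a run of letters in the window and was not tested as a binding site.

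None of the netrin ligands was called. Ntn1, which encodes netrin-1, the founding attractant of the family, was at 5.13 and 5.39 FPKM in the controls against 5.94 and 6.27 in the knockouts. Ntn4, a basement membrane netrin, was at 2.57 and 2.28 against 3.34 and 2.83 FPKM. Ntn3 was at 0.941 and 1.22 against 1.43 and 1.27 FPKM, and its exons overlap those of Tbc1d24 on the same strand, so its value is uncertain. The knockout libraries were above the controls for all 3 genes, as they were for 22.6% of all genes tested. The log2 fold changes of Ntn1, Ntn4 and Ntn3 were 0.18, 0.25 and 0.18, none past the test (in that order, limma adjusted p = 0.361, 0.353 and 0.582). Summed FPKM of the 4 netrin genes was 8.65 and 8.93 in the controls against 10.8 and 10.4 in the knockouts. Ntn5 did not exceed 0.0604 FPKM.

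Ntng2, which encodes the membrane-anchored netrin-G2, a partner of the synaptic adhesion protein Lrrc4, was at 17.3 and 18.6 FPKM in the controls against 13.6 and 14.9 in the knockouts. The groups did not overlap (log2 fold change -0.31, SE 0.079, limma adjusted p = 0.144), and the authors' deposited table gives q = 0.229. Its exons overlap those of the noncoding 6530402F18Rik on the same strand, so its value is uncertain. Its relative Ntng1 had a mean of 0.256 FPKM.

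The netrin receptors had values on both sides. Neo1 was at 84.3 and 86.2 FPKM in the controls against 73.1 and 68.5 in the knockouts, with no overlap (log2 fold change -0.27, SE 0.070, limma adjusted p = 0.162). Dcc, the attractive netrin receptor, was at 15.8 and 18.1 against 19.7 and 20.1 FPKM, also without overlap but on the higher side (log2 fold change 0.22, SE 0.085, limma adjusted p = 0.319). Neither passed here, while the authors' deposited table calls Neo1 lower (log2 fold change -0.30, q = 0.00388) and Dcc higher (log2 fold change 0.22, q = 0.0237). Of the summed FPKM of Dcc, Neo1 and the 4 Unc5 genes, Dcc made up 13.8% and 15.2% in the controls against 18.6% and 19.7% in the knockouts, and Neo1 73.5% and 72.0% against 69.1% and 67.3%.

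Among the Unc5 receptors, which mediate repulsion by netrin-1, Unc5b had the smallest p. It was at 6.10 and 6.27 FPKM in the controls against 4.20 and 4.60 in the knockouts. Both knockout libraries were below both controls (log2 fold change -0.41, SE 0.079, 95% interval -0.60 to -0.22, limma adjusted p = 0.0729), and the authors' deposited table calls it lower with a log2 fold change of -0.60 and q = 3.45e-06. Unc5a was at 0.904 and 1.06 FPKM in the controls against 1.54 and 1.66 in the knockouts, with no overlap on the higher side (log2 fold change 0.39, limma adjusted p = 0.165). Its control mean of 0.981 was below the minimum, so it entered the test through the knockout libraries, and its exons overlap those of Hk3 on the opposite strand. Unc5c, a repulsion receptor known from a mouse mutant with cerebellar defects, was at 7.23 and 7.76 against 6.95 and 6.72 FPKM (log2 fold change -0.12, limma adjusted p = 0.582), also without overlap. Unc5d had a mean of 0.291 FPKM. As a share of summed Unc5 FPKM, Unc5b was at 41.9% and 40.7% in the controls against 32.5% and 34.7% in the knockouts.

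The repulsive guidance molecules, lipid-anchored ligands of neogenin and co-receptors of bone morphogenetic proteins, did not pass. Rgma was at 33.7 and 35.4 FPKM in the controls against 34.3 and 38.8 in the knockouts, with overlapping groups and an antisense gene over some of its exons. Rgmb was at 4.24 and 4.09 against 4.26 and 5.34 FPKM, where knockout replicate 2 stood above the other libraries.

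**Figure D3:**
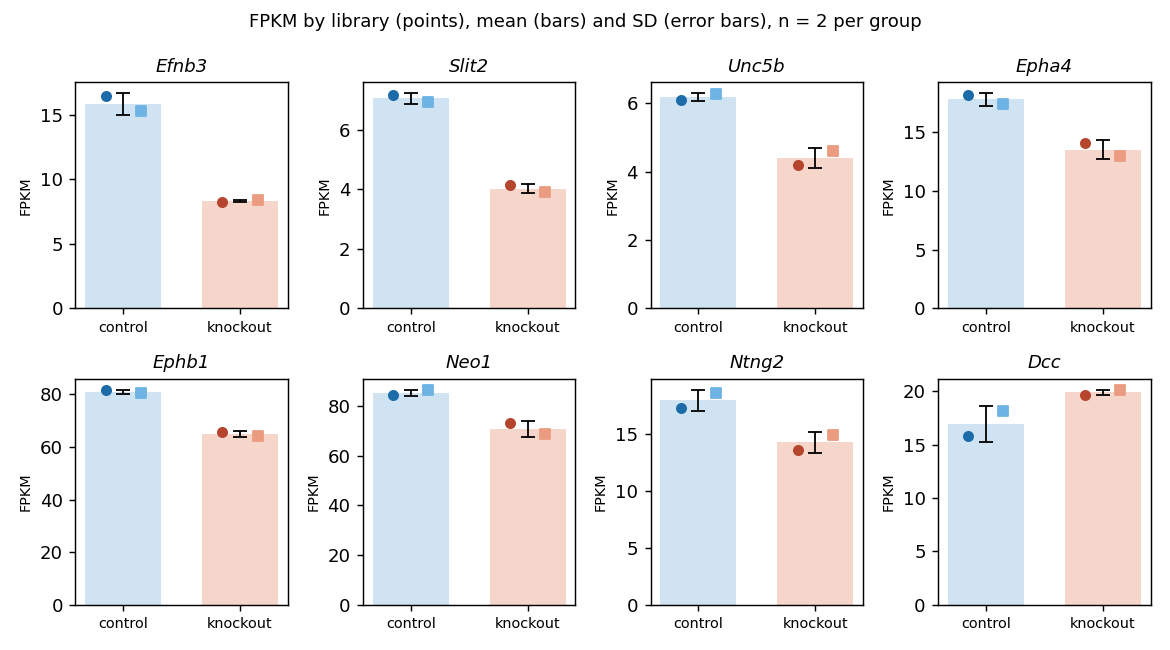
FPKM of 8 guidance genes in control and knockout, with points for the libraries, bars for the mean and error bars for the SD (n = 2 each, axes from 0). Efnb3 and Slit2 were called lower, and the other genes, which show no overlap between groups, did not pass the limma test.

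Most of the 18 guidance genes under the minimum were barely detected. Their means ran from 0.003 FPKM for Robo3 to 0.846 for Efna4, and 7 of them were below 0.1. They include 7 of the 9 EphA receptors, with Epha10 the highest at a mean of 0.501 FPKM, where knockout replicate 2 (0.885) stood above the other libraries (0.328 to 0.417). Ephb4, the receptor of venous endothelium, was at 0.357 and 0.353 FPKM in the controls against 0.423 and 0.496 in the knockouts, and its exons overlap those of Zan on the opposite strand. In the limma fit with no filter, 0 of the 18 had an adjusted p under 0.05 and 2, Slit3 and Ntng1, had an unadjusted p under 0.05 (smallest limma adjusted p = 0.214).

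**Figure D4:**
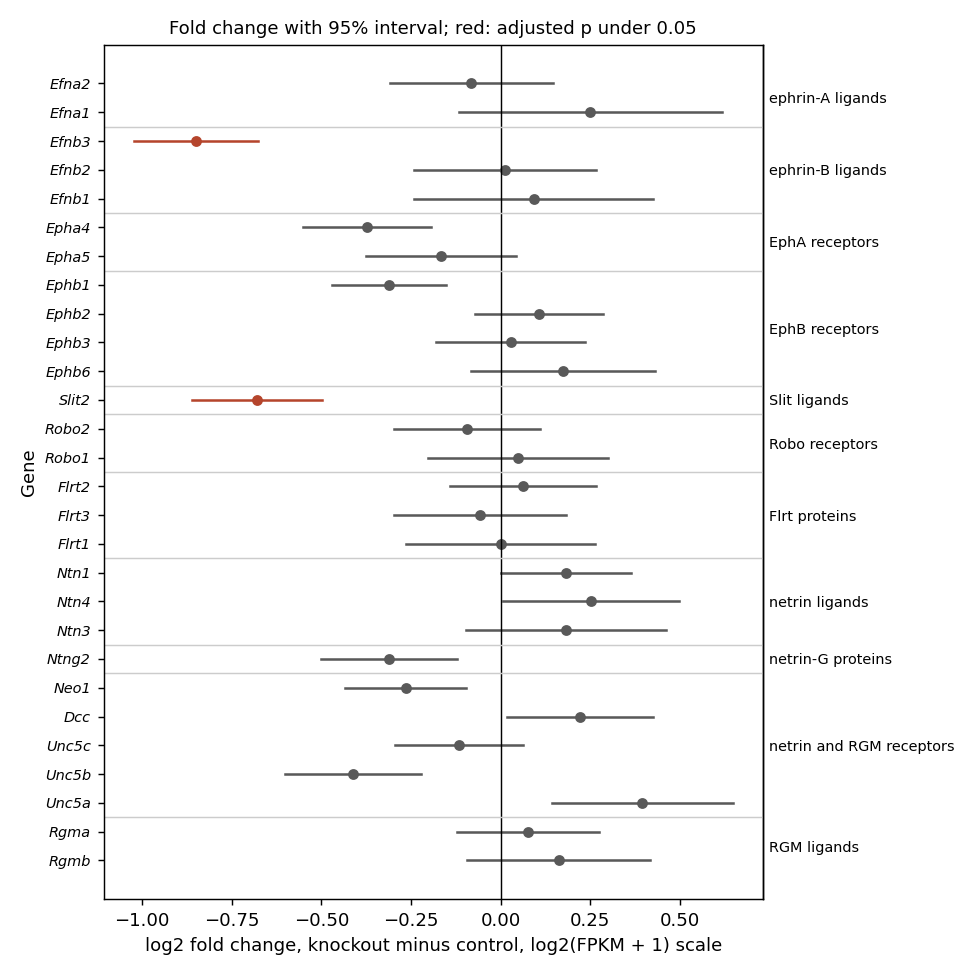
Log2 fold change (knockout minus control, log2(FPKM + 1) scale) of the 28 tested guidance genes with its 95% interval, grouped by role. Efnb3 at -0.85 and Slit2 at -0.68 (red) were called, the interval of Unc5b ends at -0.22, and 17 of the 28 intervals cross 0.

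The partners of these ligands and receptors were examined in a list of 70 symbols for co-receptors, adaptors, proteases and cytoskeletal effectors, of which 66 were in the files and 60 were tested. The kinase gene Abl1 was lower, 0 genes were higher and 59 did not pass, a share of 1.67% beside 1.31% of all genes. Abl1, a tyrosine kinase that links Robo and other guidance receptors to actin, was at 39.2 and 37.6 FPKM in the controls against 25.7 and 28.0 in the knockouts. Its libraries did not overlap (log2 fold change -0.50, SE 0.075, 95% interval -0.68 to -0.32, limma adjusted p = 0.0362). The call was lost when any 1 library was left out (limma adjusted p 0.167 to 0.220), with no filter (limma adjusted p = 0.103) and without an expression trend in the variance.

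The partner genes with the next smallest p-values were Ptpn11, a phosphatase of receptor tyrosine kinase signalling, and Pdlim7, a scaffold protein of actin fibres. Ptpn11 was at 93.8 and 88.6 FPKM in the controls against 71.7 and 72.3 in the knockouts (limma adjusted p = 0.0884), and Pdlim7 at 8.29 and 9.01 against 11.2 and 11.6 (limma adjusted p = 0.0910). The authors' deposited table calls 8 of the 62 partners it tests, beside 5.78% of all genes. It has 6 of them lower (4.05% of all genes) and 2 higher (1.73%), and it does not call Pdlim7 (q = 0.664). The lower calls of that table are Abl1, Ptpn11, Gpc1, Inppl1, Chn2 and Pak2, of which only Abl1 was called here. All but Abl1 and Ptpn11 were named after their values were seen. The higher calls of the authors' table are Draxin, a secreted netrin antagonist, with a log2 fold change of 0.75, and Dscam, a further netrin receptor, with 0.28. Both were named after their values were seen. Neither was called here (limma adjusted p = 0.108 for Draxin and 0.120 for Dscam). Draxin was at 0.957 and 0.879 FPKM in the controls against 1.61 and 1.64 in the knockouts. Its control mean of 0.918 was below the minimum, so it entered the test through the knockout libraries.

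The most abundant partners did not pass. Fyn, the kinase that links Dcc to the cytoskeleton, had a control mean of 518.0 ± 2.28 and a knockout mean of 538.6 ± 32.1 FPKM (SD, n = 2 each, limma adjusted p = 0.836). The small GTPases Rac1, Cdc42 and Rhoa had means of 357.8, 227.8 and 202.9 FPKM over the 4 libraries and log2 fold changes that were, in the same order, -0.05, -0.06 and -0.10 (limma adjusted p = 0.862, 0.808 and 0.610). Maged1, which binds Unc5 receptors, had a mean of 203.5 FPKM in both groups.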

How the data were processed

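For each of the 4 samples the authors deposited a table of FPKM per gene. CASAVA, TopHat, Cufflinks, Cuffdiff and the build mm10 are named in the submitters' processing notes, without versions or options. The authors' deposited comparison holds a pooled FPKM per group, a log2 fold change, p-values and q-values per gene, per the file headers, and is quoted as theirs. Rows of a symbol were summed (258 symbols, 0 members), and 9 symbols without an OK status were left out. The fit of log2(FPKM + 1) used limma 3.58.1 and R 4.3.3 (eBayes with an expression trend, no covariate, two-sided), with 2 residual and 4.6 prior degrees of freedom, and the code was tested on simulated data. A single-gene exact permutation test of 2 against 2 cannot go below p = 0.333. No count model was applied to FPKM. Fragment numbers are not given in the files; from the commonest ratio of low values, control replicate 2 and knockout replicates 1 and 2 had relative depths of 1.16, 0.94 and 1.13 against control replicate 1. Positions and overlaps are from GENCODE M21 (GRCm38), which matched all 46 members, and positions printed are those of the files.

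The members, lists and tests were chosen with earlier results of these data known. The naming rule takes every member, with values in each library for those called, with an unadjusted p under 0.05 or among the 12 highest, and of the partner list the called genes, the 3 smallest p and the 5 highest; other members were given values as well.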

Additional observations from a re-analysis of the deposited data

How the results depend on the processing

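Of 336 log2 fold changes of the 28 tested members over 12 alternatives, 313 kept their direction and side of the threshold, 9 lost a call (Efnb3 and Slit2), 2 gained one and 12 changed sign. Without a minimum FPKM, a fit of 17397 genes called 1 higher and 3 lower, with 0 members and 0 partners. The replicate numbers are not known to pair the samples: deviations of same-numbered libraries correlated at -0.052 over genes. With the replicate number as a block, 158 genes were called higher and 183 lower, 4 members lower (Epha4 and Unc5b added, limma adjusted p = 0.0372 and 0.0416), and among partners 1 higher and 2 lower. Without a trend in the variance, 0 partners were called. Leaving out each library in turn gave 11 to 16 genes higher, 5 to 26 lower, 0 to 1 members lower and 0 partners lower; fewer samples were in these fits, and the lone sample of a group is assumed to vary like the others. The members' median log2 fold change was -0.0036 after quantile normalization and -0.0125 to 0.0302 with a library left out. The changes of sign were in genes near 0: Efnb2 was at -0.0092 after quantile normalization and at -0.0933 to 0.118 with a library left out, Efnb1 at -0.0631 to 0.248, Rgma at -0.0114 to 0.163, Efna2 at -0.195 to 0.0305, Flrt1 at -0.0609 to 0.0598, Flrt2 at -0.0169 to 0.142, Flrt3 at -0.164 to 0.0479 and Ephb3 at -0.008 to 0.0636. The cause of these changes was not tested. The call of lncOL1 held under all 12 alternatives (limma adjusted p up to 0.0229). Members under the minimum rest on few fragments.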
